A study of Mus musculus with 40 samples.

Results

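Malignant gliomas that arose in mice with p53 R172H were compared with normal cortex by their mRNA levels. The members were the 11 samples labelled glioma with the genotype hGFAP-cre+;p53LSLR172H/floxE2-10 and the 5 samples labelled normal cortex, 16 of the 40 samples of the series. In these tumors the Cre recombinase, driven in neural cells by the human GFAP promoter, turned on a missense p53 allele and deleted the floxed exons of the other allele. The R172H change is the mouse counterpart of a hotspot mutation of human cancers. Of the cortices, 3 (arrays 30, 31 and 32) came from hGFAP-cre+;p53floxE2-10/+ mice and therefore carried Cre and 1 floxed allele, while 2 (arrays 33 and 34) came from hGFAP-cre-;p53floxE5-6/floxE5-6 mice without Cre. No ages, sexes, dates or batches were given in the labels, and nothing tied a tumor to a cortex. The labels do not say that each sample came from its own animal, so p-values measured only a spread between samples. That spread was estimated over all 40 samples of the series in 5 groups. The dorsal cortex was a tissue control and not the cell of origin of the tumors. A difference between groups could thus reflect both the mix of cells and the RNA per cell, which cannot be told apart in bulk tissue. The targeted gene itself was not analysed here, so its level could not be used to check the genotypes.

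p53 is a transcription factor that DNA damage and oncogene signals stabilise, after which it switches on genes for cell cycle arrest, repair and cell death. The ARF protein of the Cdkn2a locus protects p53 by holding back Mdm2, the ligase that marks p53 for breakdown, and p16 of the same locus restrains the cyclin D kinases. Malignant glioma is a brain tumor whose cells share genes with glial progenitors, above all oligodendrocyte progenitors, and receptor tyrosine kinases such as Pdgfra are known drivers of its growth. Normal cortex is made of excitatory and inhibitory neurons, astrocytes, myelinating oligodendrocytes, microglia and vessels.

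Signals are log2 values on Affymetrix whole-genome mouse arrays, and a difference of 1 is a 2-fold difference. Each of the 18193 genes compared was represented by 1 probe set. Across all probe sets other than controls, the correlation between arrays was 0.978 to 0.992 among the cortices and 0.853 to 0.974 among the R172H gliomas. The glioma on array 58 stood apart. It correlated more with the cortices (mean 0.975) than with the other R172H gliomas (median 0.892), whereas the other 10 gliomas had means of 0.823 to 0.910 with the cortices and medians of 0.913 to 0.959 with each other. The glioma on array 50 had the lowest of these medians, 0.913. In its account of the histology the study recorded normal tissue within a primary tumor of this genotype, but the labels do not tie that tumor to an array, and its part in the values of array 58 was not tested. Results are given with all 11 gliomas. Without array 58 the count of members that passed changed in 16 of the 36 gene lists, by at most 3 members in a direction. The X-inactivation transcript Xist ranged from 5.09 to 13.14 in the gliomas and from 4.90 to 11.55 in the cortices, so low and high levels occurred in both groups.

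In R172H gliomas 3917 genes rose against cortex and 4421 fell, at an adjusted p under 0.05 in limma. These were 21.5% and 24.3% of the genes tested, and every count of a gene list below is read against these 2 shares. At least 2-fold rises were found for 2153 genes (11.8%) and falls for 2339 (12.9%). The 11 gliomas lay entirely above the 5 cortices for 1445 genes (7.94%) and entirely below them for 1120 (6.16%), and of these genes 1431 (7.87%) and 1113 (6.12%) also passed the test. Without array 58 the counts without overlap were 2394 (13.2%) higher and 2473 (13.6%) lower, while 4142 genes (22.8%) rose and 4637 (25.5%) fell. The median difference over all genes was -0.03.

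**Figure D1:**
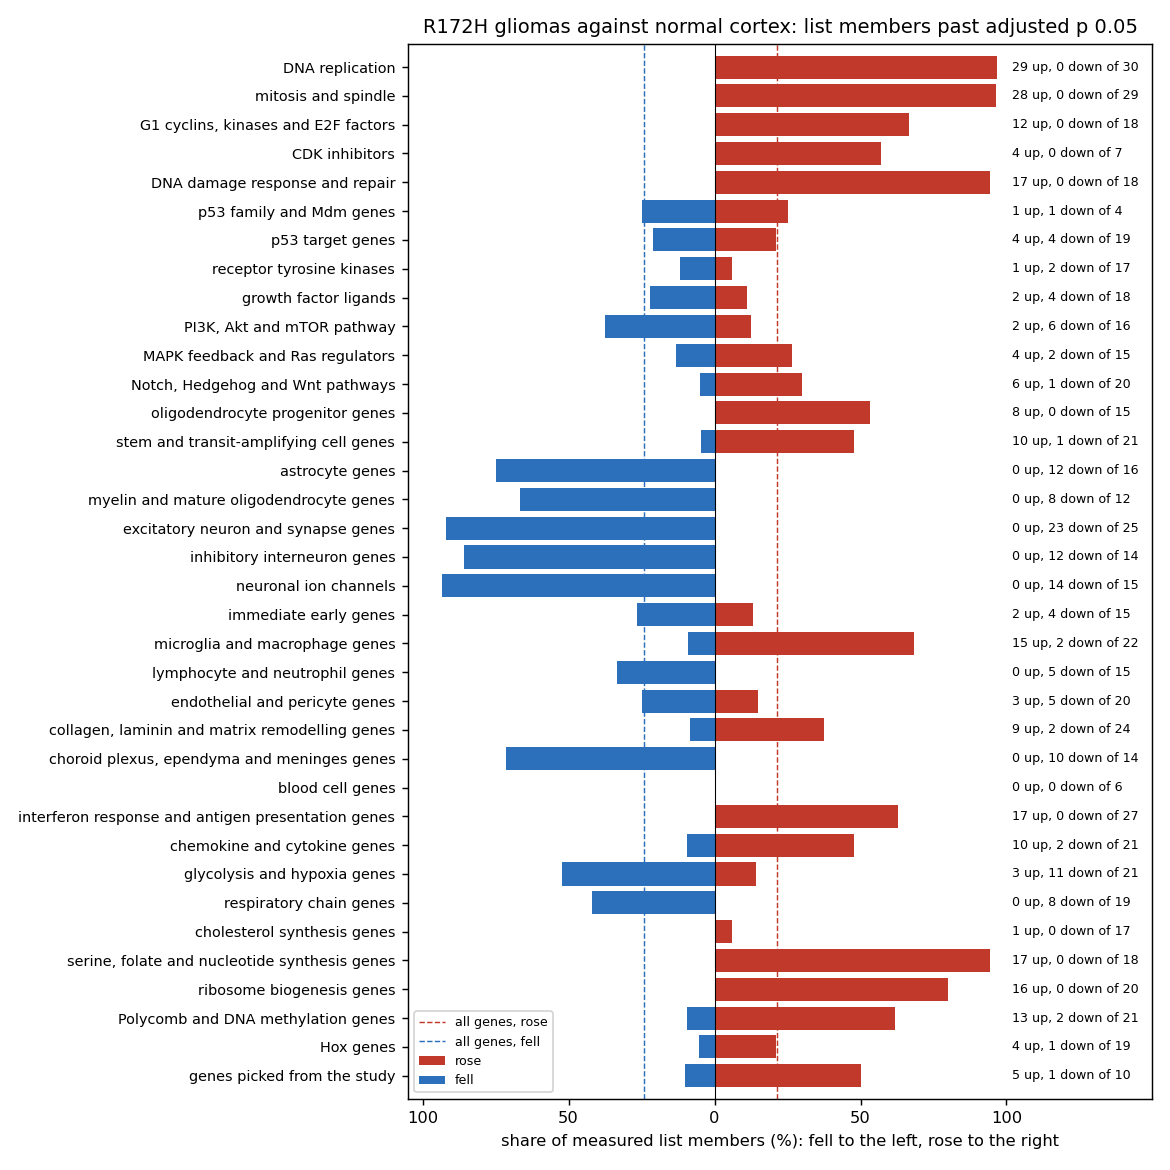
Share of the measured members of each gene list (vertical axis) that fell (blue, to the left) or rose (red, to the right) in R172H gliomas against cortex, in percent of members, with counts at the right and the shares over all genes as dashed lines. DNA replication (29 of 30 members rose) and neuronal ion channels (14 of 15 fell) stand at the extremes.

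Genes of DNA replication and mitosis rose most. Of 30 replication genes 29 rose and none fell, with a median difference of 3.01, and only Orc1 did not pass. Of 29 mitosis and spindle genes 28 rose, with a median of 4.44, and only Anln did not pass. The 11 gliomas lay above all cortices for 23 members of each list, and without array 58 for 27 replication and 28 mitosis genes. On single arrays the median of the mitosis list was 3.98 to 5.94 above the cortex mean in 10 gliomas and 1.05 on array 58.

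Top2a, the topoisomerase that untangles chromosomes before division, was at 4.23, 5.06, 4.68, 4.33 and 4.63 in cortex arrays 30 to 34 and at 7.49 to 12.18 in the gliomas, with a median of 11.45. The groups did not overlap, and the lowest glioma was array 58. The difference was 6.33 ± 0.60 (SE, n = 11 and 5, adjusted p = 4.5e-10), an 80.4-fold higher signal. Ube2c, the conjugating enzyme of the anaphase-promoting complex, was 3.36 to 4.66 in cortex and 6.84 to 12.67 in the gliomas (median 11.08). Its difference was 6.59 ± 0.65 (adjusted p = 1.02e-09). Mki67, the proliferation antigen Ki67, was 3.36 to 3.81 in cortex against 6.42 to 11.02 in the gliomas, a difference of 6.10 ± 0.60 (adjusted p = 9.99e-10). The cyclin-dependent kinase Cdk1 rose by 5.99, its partner Ccna2 by 5.86, the anaphase activator Cdc20 by 5.70, the checkpoint kinase Bub1 by 5.89, the chromosomal passenger Birc5 by 6.02 and the spindle proteins Nusap1 and Aspm by 5.91 and 5.70. The kinase Pbk rose by 6.50 and the PCNA-binding factor Pclaf by 6.11. Gm6958, a predicted gene, rose by 5.90.

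Among replication genes, Rrm2, the small subunit of ribonucleotide reductase, rose by 6.14, the thymidine kinase Tk1 by 4.45 and the helicase subunit Mcm3 by 4.49. Mcm3 was 4.09, 5.22, 5.46, 5.52 and 5.58 in the cortices and 6.43 to 11.54 in the gliomas (median 9.96). The origin licensing factor Cdc6 and the helicase subunit Mcm6, named after their values were seen, differed by 4.16 and 4.42. Cdc6 was 2.67 to 3.24 in cortex, near the low end of the array scale, and 4.31 to 8.51 in the gliomas. Mcm6 was 5.02 to 6.55 in cortex and 7.86 to 11.64 in the gliomas.

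Because the members of both lists rose together, the bases before their start sites were searched for motifs known from cell cycle promoters. The motifs were the CHR element TTTGAA, the CCAAT box and the E2F sites TTTGGCGC and TTTCCCGC, read on both strands in 300-base windows (250 bases before the RefSeq start and 50 after, build GRCm38.p6), with overlapping matches each counted. A window was found for 14452 of the 18193 genes, and the first one listed for a gene was used. The CHR letters stood in 18 of 25 mitosis windows (72.0%), 4 of 25 replication windows (16%) and 13.3% of all windows. E2F letters stood in 10 of 25 replication windows, in 0 of 25 mitosis windows and in 2.52% of all windows. The CCAAT box, found in 38.2% of all windows, stood in 68% of the mitosis and 64% of the replication windows. CHR and CCAAT letters occurred together in 15 of the mitosis windows, 3 of the replication windows and 5.37% of all windows. Among 14 windows of excitatory neuron genes, 7.14% held the CHR letters and 42.9% a CCAAT box. The 250 bases before the start are printed for 2 members of the mitosis list (Top2a and Cdk1), 2 of the replication list (Cdc6 and Mcm6) and Ube2c, which is in neither list but rose most after Cdkn2a among the genes without overlap, with motif matches in capitals, 5′ to 3′ on the strand of the gene. They lie at chr2:164769679-164769928, plus strand (Ube2c), chr11:99024190-99024439, minus strand (Top2a), chr10:69352913-69353162, minus strand (Cdk1), chr11:98907901-98908150, plus strand (Cdc6) and chr1:128359706-128359955, minus strand (Mcm6). The last base of each is the one before the start.
Ube2c: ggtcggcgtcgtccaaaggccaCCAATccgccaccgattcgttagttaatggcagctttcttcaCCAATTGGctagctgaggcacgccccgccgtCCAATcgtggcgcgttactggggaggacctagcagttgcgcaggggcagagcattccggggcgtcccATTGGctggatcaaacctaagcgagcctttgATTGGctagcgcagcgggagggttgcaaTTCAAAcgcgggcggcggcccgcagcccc
Top2a: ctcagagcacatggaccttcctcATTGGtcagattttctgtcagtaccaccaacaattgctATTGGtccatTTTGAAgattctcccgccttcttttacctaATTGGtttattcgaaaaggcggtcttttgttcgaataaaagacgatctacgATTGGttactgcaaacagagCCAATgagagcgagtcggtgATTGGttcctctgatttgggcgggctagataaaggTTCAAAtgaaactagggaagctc
Cdk1: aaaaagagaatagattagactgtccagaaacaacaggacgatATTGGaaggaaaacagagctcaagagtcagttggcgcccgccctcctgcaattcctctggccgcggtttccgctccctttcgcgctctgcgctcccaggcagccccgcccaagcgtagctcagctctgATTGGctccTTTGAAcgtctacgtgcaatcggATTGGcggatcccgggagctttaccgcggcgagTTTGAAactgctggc
Cdc6: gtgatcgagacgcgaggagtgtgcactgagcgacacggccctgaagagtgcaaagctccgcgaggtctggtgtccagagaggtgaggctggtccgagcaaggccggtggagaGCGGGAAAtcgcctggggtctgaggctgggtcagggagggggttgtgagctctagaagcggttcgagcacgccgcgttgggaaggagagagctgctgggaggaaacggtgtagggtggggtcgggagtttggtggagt
Mcm6: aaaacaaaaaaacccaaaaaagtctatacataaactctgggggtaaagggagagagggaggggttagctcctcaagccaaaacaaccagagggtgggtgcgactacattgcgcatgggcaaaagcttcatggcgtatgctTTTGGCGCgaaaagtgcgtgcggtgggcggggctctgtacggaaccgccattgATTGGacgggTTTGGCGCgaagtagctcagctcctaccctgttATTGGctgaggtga
Ube2c, Top2a and Cdk1 held 1, 2 and 2 CHR matches with 6, 6 and 3 CCAAT matches, and no E2F letters. Cdc6 held 1 E2F match and Mcm6 held 2 E2F and 2 CCAAT matches, with no CHR letters. A match of letters is a description of the window and not evidence that a factor binds there.

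**Figure D2:**
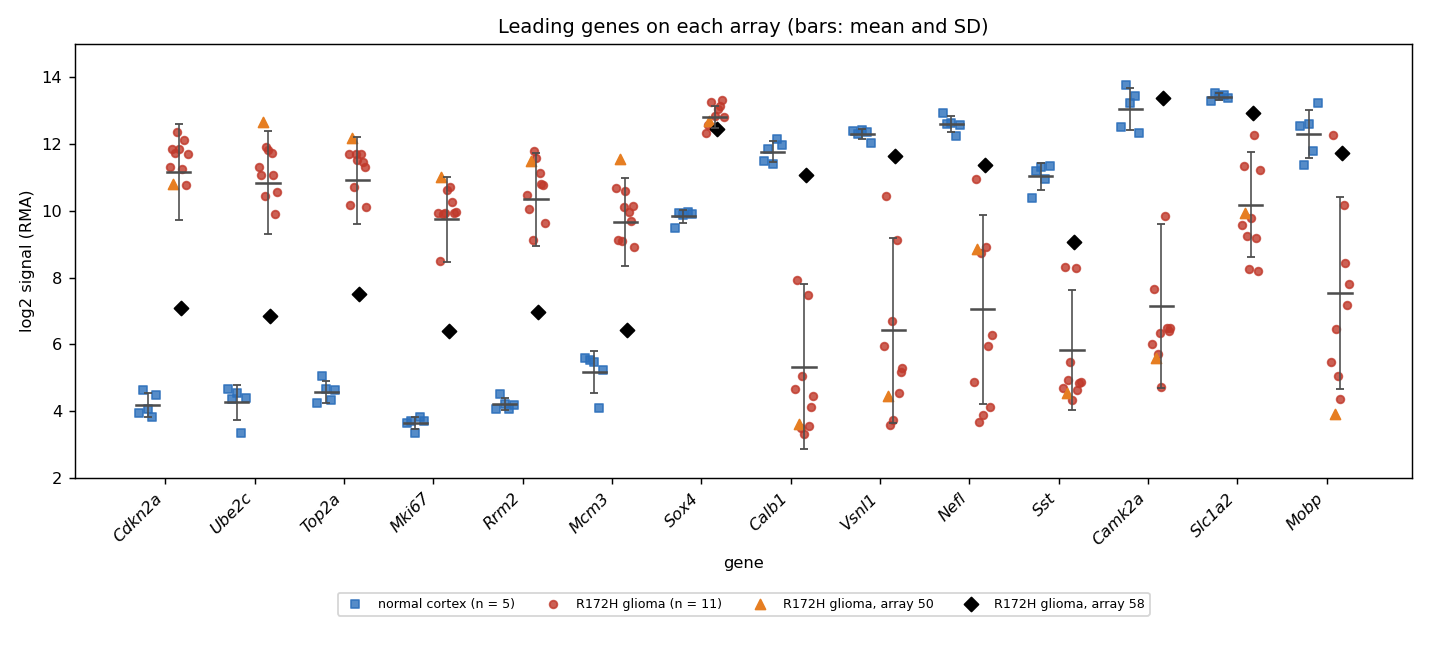
Log2 signal (vertical axis) of leading genes (horizontal axis) on each array, with normal cortices as blue squares (n = 5), R172H gliomas as red circles, array 50 as an orange triangle and array 58 as a black diamond. Bars are mean and SD. Cdkn2a ranged from 7.08 to 12.35 in the gliomas against 3.83 to 4.62 in the cortices, and array 58 is the lowest glioma for Cdkn2a, Top2a and Mki67.

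Cdkn2a had the largest rise of the genes whose groups did not overlap. This gene on chromosome 4 encodes p16 and ARF, and a single probe set measured it, so the 2 transcripts could not be separated. It was at 3.93, 4.62, 4.07, 3.83 and 4.47 in cortex arrays 30 to 34. In the gliomas it ranged from 7.08 (array 58) to 12.35 (array 54) with a median of 11.72, and the next lowest was 10.78. The difference was 6.99 ± 0.50 (SE, adjusted p = 6.03e-13), a 127-fold higher signal. Without array 58 the difference was 7.40.

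Of the 7 inhibitors of cyclin-dependent kinases, 4 rose and none fell. Cdkn2b, the p15 gene beside Cdkn2a on chromosome 4, rose by 3.53 ± 0.81 (adjusted p = 0.000504), from 4.13 to 4.5 in cortex to 5.11 to 9.53 in the gliomas, and the 2 lowest gliomas were arrays 58 (5.11) and 50 (5.17). Cdkn2c (p18) rose by 3.53 ± 0.38 and Cdkn1b (p27) by 1.28 ± 0.27, both without overlap between the groups. Cdkn1a (p21), the best known arrest gene switched on by p53, was 7.51 to 8.93 in cortex and 7.85 to 10.64 in the gliomas. Its difference of 1.02 ± 0.46 did not pass (adjusted p = 0.0692). Cdkn1c (p57) spread more than any other inhibitor, from 4.11 to 11.15 among gliomas against 7.0 to 7.45 among cortices, with a mean difference of 0.08. Cdkn2d (p19) differed by -0.16 (adjusted p = 0.606).

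Cyclins, kinases and E2F factors of the G1 phase rose in 12 of 18 cases and none fell (median 1.92). Ccnd1, cyclin D1, was 8.68 to 9.41 in cortex and up to 13.86 in the gliomas (median 13.45), without overlap, a rise of 3.96 ± 0.37 (adjusted p = 3.86e-10). Rbl1, the pocket protein p107, rose by 3.90 and the atypical repressor E2f7 by 3.86. Of the G1 kinases, Cdk4 differed by 3.04 and Cdk2 by 2.89, and the growth-promoting factor Myc by 3.45, all past the threshold and named after their values were seen. DNA damage and repair genes rose in 17 of 18 cases (median 1.43), with only Tert not passing. Rad51ap1, which assists homologous recombination, rose by 4.57, the exonuclease Exo1 by 4.06 and the checkpoint kinase Chek1 by 3.96.

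Known targets of p53 moved in no common direction. Of 19 genes 4 rose and 4 fell, shares near those over all genes, and the median was 0.17. Trp53inp1, which promotes p53-dependent death, rose by 1.02 ± 0.35 (adjusted p = 0.0152), a call lost with the mean of its probe sets (0.42, adjusted p = 0.153), with cyclic loess and with the Cre-positive cortices alone. Mdm2, both a target of p53 and its main inhibitor, was 8.60 to 8.88 in cortex and 8.77 to 9.67 in the gliomas, a rise of 0.54 ± 0.15 (adjusted p = 0.00294), a call lost with cyclic loess (0.28, adjusted p = 0.105). The other genes that rose were Bbc3 (0.55) and Sesn2 (0.98). The genes that fell were the adhesion protein Perp (-1.99), Zmat3 (-0.88), Ccng1 (-0.83) and Rrm2b (-0.59), named with the preceding 2 after their values were seen. The BH3 protein gene Pmaip1, or Noxa, differed by 1.12 without passing (adjusted p = 0.115).

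In the p53 family the paralog Trp63 stayed between 4.53 and 5.23 on all 16 arrays and fell by 0.27 (adjusted p = 0.00322), a call lost with the mean of its probe sets (adjusted p = 0.0767). Trp73, the other paralog, was 4.24 to 5.33 in 10 gliomas and 8.67 on array 50, against 4.5 to 5.17 in cortex. Its mean difference of 0.10 did not pass and was -0.26 without array 50 (adjusted p = 0.0833). Without arrays 50 and 58, a setting chosen after seeing the data, it was -0.34 and passed (adjusted p = 0.00994). Mdm4, a relative of Mdm2 that also inhibits p53, differed by 0.46 (adjusted p = 0.0811).

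Genes of oligodendrocyte progenitors were higher in most gliomas. Of 15 measured, 8 rose and none fell (median 1.89). Olig2, the lineage factor of these cells, was at 8.45, 7.44, 7.37, 6.97 and 7.92 in cortex arrays 30 to 34. It was between 10.52 and 11.21 in 9 gliomas, 8.85 on array 58 and 3.94 on array 50. The rise was 2.49 ± 0.74 (SE, adjusted p = 0.00606). The proteoglycan Vcan, abundant in progenitors, rose by 4.11 ± 0.73 (adjusted p = 2.28e-05), from 6.54 to 6.95 in cortex to 7.02 on array 50 and up to 12.78. The factor Nkx2-2 rose by 3.05 and the adhesion protein Pcdh15 by 2.77. The median of the list was 0.72 to 3.58 above cortex in 10 gliomas and 2.61 below it (a score of -2.61) on array 50. Without array 50 the count that rose was 12 of 15.

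Of 21 stem cell and transit-amplifying cell genes 10 rose and 1, the interneuron factor Dlx1, fell (median 0.91). Sox4, a factor of immature neural cells, was 9.49, 9.94, 9.89, 9.96 and 9.92 in cortex arrays 30 to 34 and 12.35 to 13.31 in the gliomas, with array 58 at 12.44. Its rise was 2.98 ± 0.19 (SE, adjusted p = 3.06e-14), a 7.86-fold higher signal, and stayed at 3.01 without array 58. Ezh2, the methyltransferase of Polycomb repressive complex 2, rose by 4.77 ± 0.43, and the intermediate filament Vim by 3.06 ± 0.40.

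Astrocyte genes fell in 12 of 16 cases and none rose (median -1.62). The glutamate transporter Slc1a2 fell by 3.24 ± 0.73 (adjusted p = 0.000417), from 13.29 to 13.53 in cortex to between 8.19 and 12.94 in the gliomas. The gap junction genes Gjb6 and Gja1 fell by 4.61 and 3.76. Gfap, the astrocyte filament often stained in gliomas, did not pass: its difference was 0.31 ± 0.79 (adjusted p = 0.78), and the gliomas ranged from 6.20 to 11.49 around the cortices at 7.41 to 8.76. Arrays 46, 50, 52 and 54 were below all cortices for Gfap, and arrays 56, 58, 60, 62, 64 and 67 were above all of them. With the 3 Cre-positive cortices alone as controls, 6 astrocyte genes fell, while the list median was still -1.55.

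Myelin genes fell in 8 of 12 cases and none rose (median -2.74). Mobp, a myelin protein of oligodendrocytes, was 11.38 to 13.23 in cortex and 3.91 to 12.28 in the gliomas (median 7.18), a fall of 4.78 ± 1.06 (adjusted p = 0.000349). Arrays 48 (12.28) and 58 (11.72) were within the cortex range and array 60 was at 10.18. Ermn fell by 4.53 and Aspa, which cleaves N-acetylaspartate, by 3.92, both with all gliomas below all cortices.

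Neuronal genes showed the largest falls. Excitatory neuron and synapse genes fell in 23 of 25 cases (median -4.04), and Gria3 and Shank1 did not pass. The gliomas were below all cortices for 6 of the 25 genes with array 58 included and for 21 without it. Inhibitory interneuron genes fell in 12 of 14 cases (median -4.48), with Npy and Calb2 not passing, and neuronal ion channels in 14 of 15 (median -3.34), with Kcnd2 not passing. Without array 58 all 14 interneuron and all 15 channel genes fell.

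Camk2a, the calcium-dependent kinase of excitatory synapses, was at 12.50, 13.78, 13.22, 13.43 and 12.33 in cortex arrays 30 to 34. In the gliomas it was 4.72 to 9.86 on 10 arrays and 13.38 on array 58, within the cortex range. It fell by 5.90 ± 1.02 (SE, adjusted p = 1.52e-05) and by 6.53 without array 58. The calcium sensor Vsnl1 fell by 5.88 and the glutamate receptor Gria1 by 5.59. The neurofilaments Nefl and Nefh fell by 5.54 and 5.50.

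Calb1, a calcium buffer of interneurons and other neurons, fell most of the genes without overlap, by 6.44 ± 1.16 (adjusted p = 2.63e-05). It was 11.42 to 12.16 in cortex. In the gliomas it was 11.08 on array 58, 7.93 and 7.48 on arrays 48 and 60, and 3.30 to 5.05 on the other 8. The peptide genes Sst and Cck fell by 5.22 and 5.91. The GABA receptor subunit Gabrb2 fell by 5.18, the fast potassium channel Kcnc2 by 5.67, the sodium channel Scn2a by 4.09 and the calcium pump Atp2b2 by 4.58. The potassium-dependent exchanger Slc24a2 (-6.20), Spock1 (-5.72), Mal2 (-5.59), Resp18 (-5.59), Hpca (-5.50), Sez6l2 (-5.30), Kcnip4 (-5.25) and Ckmt1 (-5.13) completed the 15 largest falls without overlap.

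**Figure D3:**
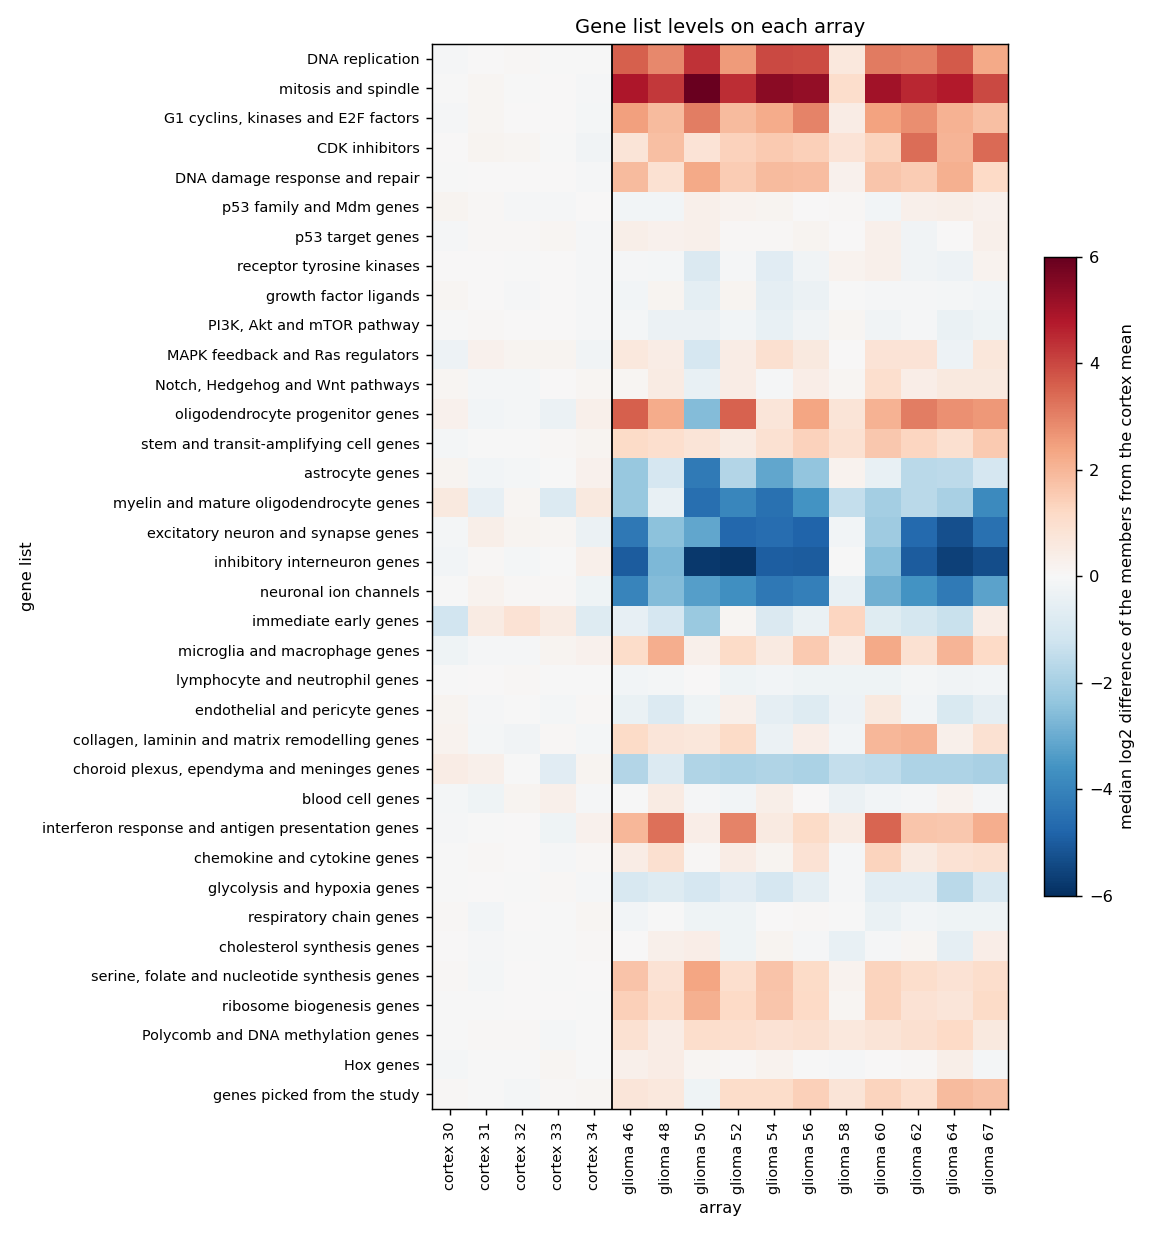
Median log2 difference of the members of each gene list (rows) from the cortex mean on each of the 5 cortex and 11 R172H glioma arrays (columns), blue below and red above cortex. Array 58 is pale in the mitosis and neuron rows (1.05 and -0.18), and array 50 is blue in the oligodendrocyte progenitor row (-2.61).

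Immediate early genes, which neurons switch on with activity, fell in 4 of 15 cases and rose in 2 (median -0.53). The share that fell was near the 24.3% over all genes. Egr3, Arc and Nr4a2 fell by 2.84, 2.67 and 2.22, together with Egr4 (-1.42), while Jun (1.14) and Ier2 (2.21) rose, the last 3 named after their values were seen. Without array 58, 7 fell.

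Microglia and macrophage genes rose in 15 of 22 cases and fell in 2 (median 1.29). Lyz2, a lysozyme of macrophages, was 6.99 to 7.92 in cortex and 7.47 to 12.65 in the gliomas (median 11.50), a rise of 3.60 ± 0.59 (adjusted p = 6.61e-06). Ms4a7 rose by 3.28 and Gpnmb, a glycoprotein of lipid-laden phagocytes, by 2.96. The genes that fell were P2ry12 (-1.61), a receptor of resting microglia, and the mannose receptor Mrc1 (-0.72), named after their values were seen. On single arrays the list median was 0.30 to 2.29 above cortex, highest on arrays 60 and 48 and lowest on arrays 50 and 58. Of 15 lymphocyte and neutrophil genes 5 fell, with Cd4 (-0.50), Cd2 (-0.37) and Camp (-0.35) first, and none rose. Cd2 and Camp lay near background in both groups, and among the members left by a filter on dim genes 1 fell and the median turned to 0.56. Of 6 blood cell genes none passed in limma, and the lowest unadjusted p was 0.108 (Ppbp).

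Interferon response and antigen presentation genes rose in 17 of 27 cases and none fell (median 1.78), and without array 58 19 rose. Usp18, which brakes interferon signalling, rose by 4.56 ± 1.03 (adjusted p = 0.000409). Its level was 3.75 to 5.42 in cortex and 5.19 to 11.97 in the gliomas, with array 50 at the bottom and arrays 60 and 48 at the top. Cxcl10, a chemokine that interferon induces, was 3.86 to 4.93 in cortex and 5.31 to 11.20 in the gliomas, a rise of 4.01 ± 0.84 without overlap (adjusted p = 0.000182). The guanylate-binding protein Gbp3 rose by 3.0. The list median on single gliomas ran from 0.42 on array 50 to 3.48 on array 60. The 4 lowest gliomas were arrays 50, 58, 54 and 56, and the 3 highest, arrays 60, 48 and 52, were 2.96 or more above cortex.

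Chemokine and cytokine genes rose in 10 of 21 cases and fell in 2 (median 0.72). Cxcr4, the receptor of Cxcl12, rose by 3.62 ± 0.65 (adjusted p = 2.51e-05), from 3.43 to 4.94 in cortex to 6.85 to 9.23 in the gliomas. Its ligand Cxcl12, named after its value was seen, fell by 3.38. The monocyte attractant Ccl12 rose by 2.34 and the receptor Ccr1 by 2.31. Ccr2 (-0.24) was the other gene that fell.

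Endothelial and pericyte genes rose in 3 of 20 cases and fell in 5, a share near the 24.3% that fell over all genes (median -0.34). The angiopoietin receptor Tek fell by 2.16 ± 0.37 without overlap, the VEGF receptor Flt1 by 1.52 and the endothelial cadherin Cdh5 by 1.0. The genes that rose were Esm1 (1.64) and Angpt2 (1.75), both made by sprouting vessels, and Cspg4 (2.64), which pericytes share with oligodendrocyte progenitors. They were named after their values were seen. Collagens, laminins and matrix genes rose in 9 of 24 cases and fell in 2 (median 0.89). The matrix glycoprotein Tnc rose by 3.35 ± 0.69 (adjusted p = 0.000133), from 4.84 to 6.47 in cortex to 5.98 to 11.37 in the gliomas, the protease inhibitor Timp1 by 2.95 and Postn by 2.91. With the 3 Cre-positive cortices alone as controls, 4 of the 24 rose, while the list median was 0.96.

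Genes of choroid plexus, ependyma and meninges fell in 10 of 14 cases (median -1.55). Ttr, the transthyretin made by choroid plexus, was 13.27, 13.07, 11.75 and 12.61 in cortex arrays 30, 31, 32 and 34 but 4.82 on array 33. It was 4.37 to 5.69 in the gliomas. Kl, another choroid plexus gene, followed the same order, at 5.53 on array 33 against 7.12 to 7.96 on the other cortices and 3.41 to 4.27 in the gliomas. The falls were 6.28 ± 0.67 for Ttr and 3.45 ± 0.22 for Kl. For these genes the SE, from a spread shared by all arrays of the series, understates the spread among the cortices. The SD among cortices was 3.56 for Ttr and 0.975 for Kl, against 0.41 and 0.23 among the gliomas. Leaving out cortex array 33 gave -7.85 for Ttr and -3.85 for Kl, and leaving out array 30 gave -5.74 and -3.25. The choroid plexus is not part of the cortex, and its part in the other results was not tested.

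Genes of serine, folate and nucleotide synthesis rose in 17 of 18 cases (median 1.24), with only Dhodh not passing. The mitochondrial serine enzyme Shmt2 rose by 2.92 ± 0.34, Mthfd2 by 2.32 and Psph by 2.13. Ribosome biogenesis genes rose in 16 of 20 cases (median 1.22), with the nucleolar proteins Fbl, Gnl3 and Nip7 up by 1.80, 1.78 and 1.74. Glycolysis and hypoxia genes fell in 11 of 21 cases and rose in 3 (median -0.86). The leading falls were Eno2 (-4.02), the neuronal enolase, Ndrg1 (-2.71), which myelinating cells and hypoxia raise, and Pfkm (-2.17). The genes that rose were Hk2 (2.31), Egln3 (1.76) and Ddit4 (1.06), named after their values were seen. Respiratory chain genes fell in 8 of 19 cases (median -0.22), among them Ndufv1, which fell by 0.96, Uqcrc2, which fell by 0.83, and Ndufs1, which fell by 0.72. Cholesterol synthesis genes passed in 1 of 17 cases, Dhcr7 (1.78, adjusted p = 0.0289), while Lss and Fdps differed by 0.28 and 0.22.

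Polycomb and DNA methylation genes rose in 13 of 21 cases and fell in 2 (median 0.83). Uhrf1, which brings DNA methyltransferase to replicating DNA, rose by 5.01 ± 0.62 and the chromatin remodeller Hells by 4.36 ± 0.59. The 2 that fell, the Polycomb subunit Cbx7 (-1.61) and Ezh1 (-1.51), the paralog of Ezh2, were named after their values were seen. Hox genes, which pattern the hindbrain and spinal cord, rose in 4 of 19 cases and fell in 1 (median 0.14). The share that rose was near the 21.5% over all genes. Hoxa9 was 3.20 to 3.59 in cortex and 3.73 to 8.63 in the gliomas, highest on arrays 48, 62, 64 and 67 (8.12, 8.63, 8.38 and 7.63). Its rise of 2.59 ± 1.09 was just past the threshold (adjusted p = 0.0494) and missed it without array 58 (0.0576). The Hoxa9 call was also lost without each of the 5 cortices in turn. With the mean of its probe sets the difference was 1.37 and did not pass (adjusted p = 0.102). Hoxa2 rose by 1.83 (adjusted p = 0.0366) and Hoxa7 by 1.71 (adjusted p = 0.0405). Both calls were likewise lost without each of the 5 cortices in turn. With the 3 Cre-positive cortices alone as controls none of the 19 rose, while the list median was 0.25.

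Receptor tyrosine kinases passed rarely: 1 of 17 rose and 2 fell (median -0.13). Pdgfra, the platelet-derived growth factor receptor of progenitors, on chromosome 5, was the receptor that rose. It was at 9.80, 9.62, 9.55, 9.79 and 9.90 in cortex arrays 30 to 34. In the gliomas it was 11.32 to 13.81 on 10 arrays and 8.09 on array 50. The rise was 2.36 ± 0.61 (SE, adjusted p = 0.00166), a 5.13-fold higher signal, and the two-sided exact permutation test gave p = 0.00641. Fgfr2 fell by 2.07 ± 0.48 and Fgfr3, an astrocyte marker as well, by 1.64 ± 0.63 (adjusted p = 0.0304). The Fgfr3 call was lost with the Cre-positive cortices alone (adjusted p = 0.126). It was also lost without cortex array 30, 33 or 34 and without glioma array 50, 54 or 56.

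Several receptors differed more between tumors than between groups. Met, the hepatocyte growth factor receptor, was 13.21 on array 54, 11.36 on array 46 and 3.94 on array 52, while the other 8 gliomas were at 5.60 to 9.02 and the cortices at 4.65 to 7.19. Its mean difference of 2.00 ± 1.27 did not pass (adjusted p = 0.203). Egfr was 8.75, 8.68 and 8.07 on arrays 56, 60 and 58, above the cortices at 6.93 to 7.43, and as low as 3.65 on array 52, with a mean difference of -1.23 (adjusted p = 0.255). Igf1r was highest on array 46 at 11.88, with the other gliomas at 8.49 to 10.30 and the cortices at 9.25 to 9.83. Erbb3 ranged from 4.88 to 11.27 around cortices at 6.80 to 8.15 (difference 1.18, adjusted p = 0.394), and Kit from 7.49 to 9.69 (-0.08). The remaining receptors were Pdgfrb (-0.93), Erbb2 (-0.13), Erbb4 (-0.18), Fgfr1 (-0.16), Kdr (-0.11), Ntrk2 (-0.33), Ntrk3 (-0.24), Axl (0.44) and Epha2 (0.21), and none of them passed. Ntrk2 and Ntrk3 depended on the probe set: other probe sets of Ntrk2 gave -4.00, -3.79 and -3.89, and the means over all probe sets fell by 1.76 (adjusted p = 0.000261) and, for Ntrk3, by 0.67 (adjusted p = 0.0323). The mean of the Pdgfrb probe sets, -0.90, passed as well (adjusted p = 0.037).

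Growth factor ligands rose in 2 of 18 cases, Egf (0.51) and Ptn (0.59), and fell in 4 (median -0.00). The share that fell was near the 24.3% over all genes. The neuronal ligands Nrg3 and Bdnf fell by 3.76 and 3.54, Fgf1 by 2.05 and Nrg1 by 1.10. Within the PI3K, Akt and mTOR pathway 2 of 16 rose and 6 fell (median -0.15). The kinases Mtor and Pdpk1 fell by 0.99 and 0.98 and the inhibitor Tsc1 by 0.88. With the mean of the probe sets the differences of Mtor (-0.04, adjusted p = 0.791) and Tsc1 (-0.07, adjusted p = 0.741) did not pass. Other probe sets differed by 0.39 and 0.47 for Mtor and by 0.96 and -0.28 for Tsc1. In the same list the translation repressor Eif4ebp1 (4.02) and the ribosomal protein Rps6 (1.3) rose. MAPK feedback and Ras regulators rose in 4 of 15 cases, a share near the 21.5% over all genes, and fell in 2 (median 0.38). The feedback inhibitor Spry1 rose by 2.86 ± 0.54, the ETS factor Etv4 by 2.43 and Nras by 1.37, together with Rasa1 (0.46). Rasgrp1 (-5.33) and Braf (-1.42) fell. In the Notch, Hedgehog and Wnt pathways 6 of 20 rose and 1, Axin2 (-0.79), fell (median 0.21). The Notch ligands Dll3, Dll1 and Jag1 rose by 3.16, 2.19 and 1.76, and the receptor Notch1 by 1.73. Nrg1, Notch1 and the members given with a value in parentheses were named after their values were seen.

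Of 10 measured genes picked from the many that the study names, 5 rose and 1 fell. They are a small selection, some of them studied on these samples, so they are no independent evidence of a direction. Beside Mki67, Olig2 and Pdgfra, the isocitrate dehydrogenase Idh1 rose by 1.05 ± 0.21 (adjusted p = 7.2e-05) and the histone H3.3 gene H3f3a by 1.74 ± 0.37. A single probe set measured H3f3a, at 4.92 to 5.54 in cortex, close to background, and at 5.91 to 8.33 in the gliomas. Pik3ca, the catalytic PI3K subunit, fell by 0.48 ± 0.17 (adjusted p = 0.0189), but the mean of its probe sets differed by -0.12 and did not pass (adjusted p = 0.574). Idh2 (0.64, adjusted p = 0.0601) and Rictor, the defining subunit of mTOR complex 2 (-0.24, adjusted p = 0.311), did not pass. Rictor depended on the probe set too: the mean of its probe sets rose by 0.60 (adjusted p = 0.0229).

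Tumor-to-tumor differences were large for some genes, and how many was not counted. The genes with the largest SD among the 10 gliomas other than array 58 were named after the values were seen and Xist was left out. Igf2, an imprinted growth factor gene on chromosome 7, led with an SD of 3.29. It was 14.00, 14.02, 13.84, 13.73 and 13.32 on arrays 48, 60, 62, 64 and 67, 11.51 and 11.15 on arrays 50 and 52, and 5.63 to 7.52 on arrays 46, 54, 56 and 58, against 9.23 to 10.15 in cortex. Thus 7 gliomas were above all cortices and 4 were below. Stmn2, Nrn1 and Fgf15 came next, each with an SD of 3.01. Stmn2 was 4.62 to 12.06 in the gliomas and 11.91 to 12.22 in cortex. Nrn1, of the excitatory neuron list, was 3.21 to 9.94 in the gliomas and 10.54 to 11.72 in cortex. Kcnq1 and Cdkn1c, imprinted genes of the stretch of chromosome 7 that holds Igf2, were not among the genes chosen by SD. Both were highest on arrays 62, 64 and 67. Kcnq1 was 10.78, 11.81 and 7.27 there and 4.72 to 6.71 on the other gliomas. Cdkn1c was 11.15, 9.36 and 10.76 there and at most 8.40 elsewhere.

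Array 50 differed from the other gliomas in lineage genes. Beside low Olig2 and Pdgfra, Sox2, a stem cell factor, was 6.20 there and 11.11 to 11.79 in the other 10 gliomas, Olig1 was 7.57 against 11.81 to 13.48, and Myc was 5.86 against 7.04 to 10.89. Its relative Mycn, in contrast, was 13.39 on array 50 and 4.57 to 9.49 on the others. The neuronal differentiation factor Neurod1 was 12.60 (others 3.51 to 9.43), Fgf15 was 13.22 (others 4.05 to 10.47), Crabp1 11.78 (others 2.94 to 4.5) and the migrating neuroblast gene Dcx 11.52 (others 3.93 to 9.90). The medians of the replication and mitosis lists were highest on array 50, at 4.31 and 5.94 above the cortex mean, although single genes of these lists were higher on other arrays. Array 54 was low in Sox10 and Rlbp1 like array 50 but had Olig2 at 10.63: Sox10 was 6.79 and 6.30 on arrays 54 and 50 against 9.51 to 12.17 elsewhere, and Rlbp1 was 4.17 and 4.67 against 8.65 to 12.26. Array 58, near cortex for most lists, had Dlx2 at 8.42 (other gliomas 3.80 to 5.20, cortices 4.93 to 5.63), Dcx at 9.90 and Egfr at 8.07.

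**Figure D4:**
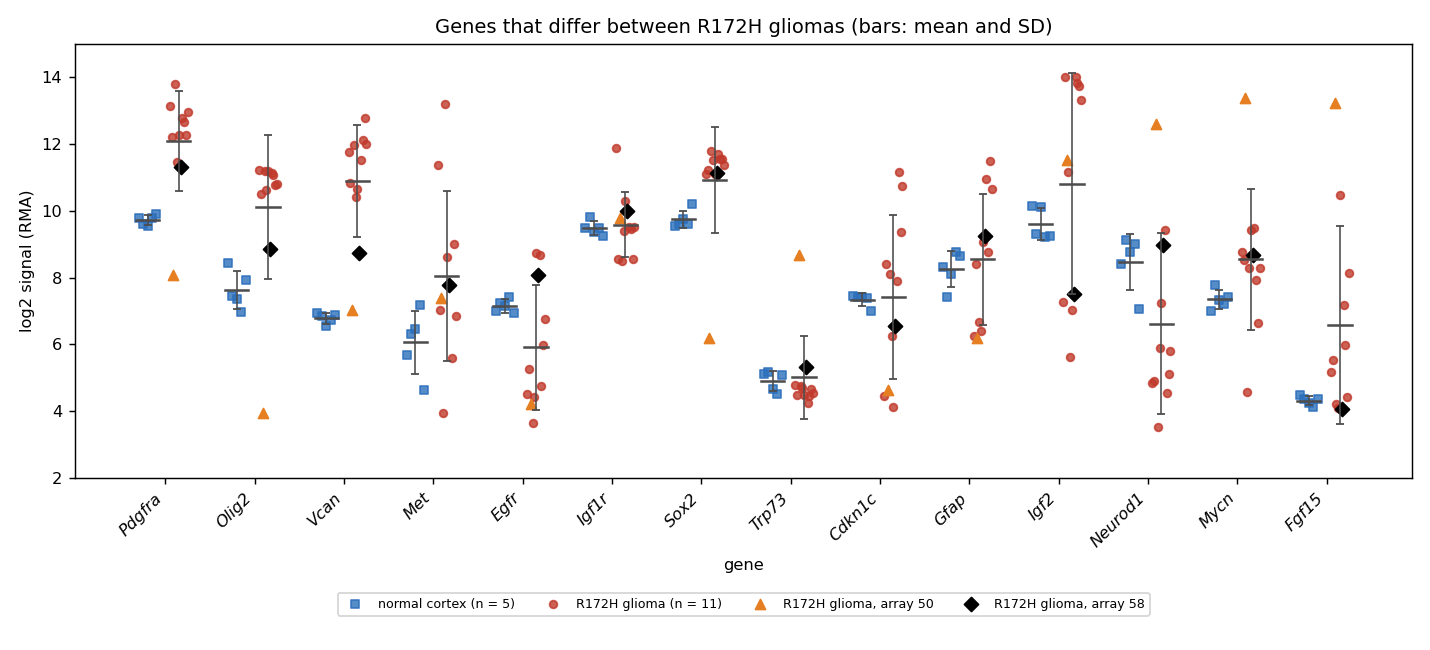
Log2 signal (vertical axis) of genes that differed between R172H gliomas (horizontal axis), with cortices as blue squares (n = 5), gliomas as red circles, array 50 as an orange triangle and array 58 as a black diamond. Bars are mean and SD. Array 50 lies below the other gliomas for Pdgfra (8.09), Olig2 (3.94) and Sox2 (6.20) and above them for Mycn (13.39) and Neurod1 (12.60).

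The R172H gliomas were next compared with the 11 gliomas of hGFAP-cre+;p53floxE2-10/floxE2-10 mice, in which Cre deletes both p53 alleles, to ask whether expression differed between tumors of these genotypes. In limma 6 of 18193 genes (0.033%) passed, all lower in the R172H gliomas. At an unadjusted p of 0.05 the count was 2022 (11.1%), where about 1 in 20 genes would pass if none differed. The 6 were the chemokines Ccl12 (-2.33, adjusted p = 0.0448) and Ccl4 (-1.07, 0.0353), the cytokine Il1b (-0.98, 0.0306), the interferon-induced exonuclease Isg20 (-1.58, 0.0423), Pstpip1 (-0.87, 0.0437) and the linker histone H1f7 (-0.42, 0.0448). H1f7 averaged 4.19 in the R172H gliomas, a signal that cannot be told from background. The median difference was -1.08 over the 27 interferon genes and -0.60 over the 21 chemokine and cytokine genes, against -0.00 over all genes. On single arrays the interferon list was 0.42 to 3.48 above cortex in R172H gliomas and 1.89 to 4.38 in p53-null gliomas. The call of these 6 genes rested on few arrays: the count was 0 without array 46, 54 or 58, 71 without array 48 and 29 without array 60. For the genes with the largest rises against cortex the contrast was small, with -0.16 for Cdkn2a, 0.26 for Top2a and 0.46 for Mki67.

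**Figure D5:**
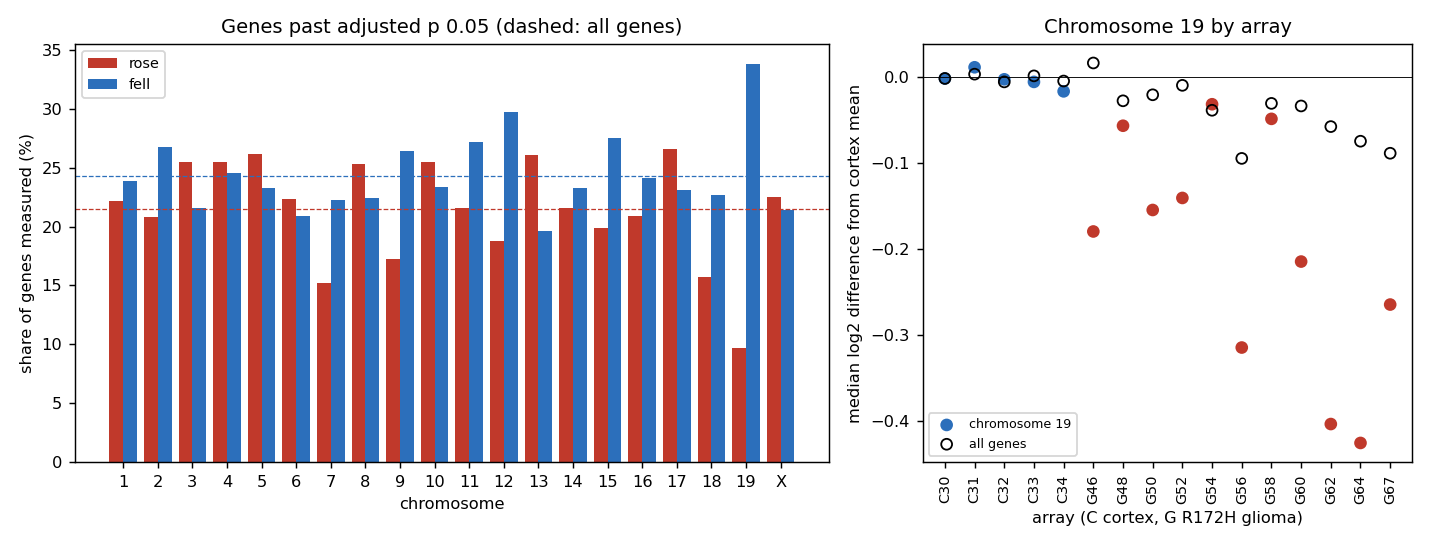
Left: share of the genes of each chromosome (percent, vertical axis) that rose (red) or fell (blue) in R172H gliomas against cortex, with the shares over all genes as dashed lines. Right: median log2 difference from the cortex mean of chromosome 19 genes (filled, blue for cortices and red for gliomas) and of all genes (open) on each array. Chromosome 19 has the fewest rises (9.69%) and most falls (33.8%).

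By chromosome, the lowest median difference was that of chromosome 19, given here as a description without a test. Of 609 genes on it 59 rose (9.69%) and 206 fell (33.8%), with a median difference of -0.16, while the medians of the other chromosomes were -0.10 to 0.03. On single arrays the chromosome 19 median was -0.426 on array 64, -0.404 on array 62 and -0.315 on array 56, and between -0.265 and -0.032 on the other gliomas. In the cortices it was -0.017 to 0.011. The median over all genes was -0.095 to 0.016 on the glioma arrays. No copy number was measured on these arrays, and the part of the mix of cells in this result was not tested.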

How the data were processed

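RNA from 40 samples was hybridised to Affymetrix whole-genome mouse arrays. The authors background-corrected and quantile-normalised the arrays together by RMA and deposited one table of log2 signals for 45101 probe sets (2.00 to 14.47, array medians 5.24 to 5.47). Software versions were not given in the sources used here, and the log base was taken from the range of values. Quantile normalisation hides a shift of all genes, and no detection calls were used, so signals of about 3 to 5 cannot be told from background and differences of such genes may be understated. Precision is limited by the number of arrays.

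Of the probe sets, 64 were controls, 34945 named 1 gene, 932 named several and 9160 had no gene in the annotation used. Each of 18193 genes was represented by its probe set of highest average signal across all arrays (9010 genes had several). RefSeq identifiers (GRCm38.p6) matched 34741 probe sets and gave 18029 genes a chromosome. Of the genes in the lists, 53 were not analysed here, the targeted gene among them. Group and array number came from the labels, and 16 samples entered the main comparison.

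Linear models were fitted in limma 3.58.1 (R 4.3.3) over all 40 arrays in 5 groups, with moderated statistics and Benjamini-Hochberg adjusted p under 0.05 over all genes. The spread was thus shared with 11 p53-null gliomas, 11 glioma cell lines and 2 early biopsy lines. The study paired each R172H tumor with a cell line derived from it. The fit took tumors and lines as separate samples and made no allowance for this pairing. An exact permutation test used scipy 1.17.1 (Python 3.11.15). The fit was tested on simulated data. Per array, a list was scored by its members' median difference from the mean of the cortices. The members and lists were chosen with earlier results of these data known. Named were the 15 largest rises and 15 largest falls without overlap between groups, 3 members of each of 36 lists, a selection of genes the study names, the genes that differed from p53-null gliomas, and all p53 family, CDK inhibitor and receptor tyrosine kinase genes. Other genes were named after their values were seen. Alternatives included averaging the probe sets of a gene, leaving out cross-hybridising probe sets, a signal of at least 6 on 5 arrays, the compared groups alone, cyclic loess, array weights, trend and robust moderation, an adjusted p of 0.1, Cre-positive cortices alone, and leaving out each cortex and each R172H glioma. Leaving out arrays 50 and 58 together was chosen after seeing the data.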

Additional observations from a re-analysis of the deposited data

Results flagged for a closer look

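Among the 5 cortices, 1 array lay far from the other 4 for 14 of the 155 named genes, where chance alone gives about 1 in 20. Cortex array 33, which carried no Cre, was low for Ube2c (3.36), Mcm3 (4.09), Ttr (4.82) and Cdkn1b (8.60) and high for Mtor (9.99) and Timp1 (5.83). Cortex array 30 was high for Tek (7.04) and Fgfr1 (9.03) and low for Sox4 (9.49), Kdr (7.19) and Ccl4 (5.60). Cortex array 34 was low for Vsnl1 (12.05), Cdkn1c (7.0) and Kit (7.66).

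The R172H gliomas differed from the p53-null gliomas in limma for Ccl12 (-2.33), Ccl4 (-1.07), H1f7 (-0.42), Il1b (-0.98), Isg20 (-1.58) and Pstpip1 (-0.87), log2 differences of R172H minus null. Of these genes, H1f7 lay near background in the R172H gliomas.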

How the results depend on the processing

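Named genes kept direction and side of the threshold in 3896 comparisons with an alternative, gained the call in 29, lost it in 74 and changed sign in 19. Counts of list members stayed within 1.5 times in 883 comparisons and moved further in 53. Leaving out 1 sample gave 3498 to 4142 genes that rose and 3928 to 4637 that fell. The dim-gene filter moved the median of all genes to 0.12. The count against p53-null gliomas (6) was 0 with the compared groups alone, 0 with cyclic loess, 14 with array weights, 2 without arrays 50 and 58, and 0 to 71 leaving out 1 sample. With cyclic loess, 0 p53 family, 2 p53 target, 0 cholesterol and 2 Hox genes rose, and 3 lymphocyte and 14 respiratory chain genes fell. With array weights, 2 p53 family, 7 p53 target, 7 MAPK and 15 oligodendrocyte progenitor genes rose, and 7 immediate early and 8 endothelial genes fell. With the Cre-positive cortices alone, 1 p53 target, 4 matrix, 0 cholesterol and 0 Hox genes rose, and 1 receptor, 6 astrocyte and 2 lymphocyte genes fell. Only 3 controls remained there, and the medians of the astrocyte, matrix and Hox lists were -1.55, 0.96 and 0.25. This setting also ended the calls of Trp53inp1, Fgfr3, Cd2, Camp, Cdh5, Postn, Dhcr7, Hoxa9, Hoxa2, Hoxa7 and Pik3ca. With the mean of probe sets, 2 p53 target genes rose, and 5 receptors and 1 blood cell gene fell. With the dim-gene filter 1 lymphocyte and 3 choroid plexus genes fell. At an adjusted p of 0.1, 2 p53 family genes rose and 7 immediate early genes fell. Without arrays 50 and 58, 2 p53 family and 8 MAPK genes rose. Leaving out 1 sample gave 1 to 2 p53 family, 3 to 5 p53 target, 3 to 8 MAPK (8 without array 50), 6 to 12 progenitor (12 without array 50), 6 to 10 matrix, 0 to 1 cholesterol and 0 to 4 Hox genes that rose (0 without cortex 31 for the last 2), and 1 to 2 receptors, 4 to 7 immediate early (7 without array 58) and 3 to 5 lymphocyte genes that fell. Signs changed for genes that had not passed in the main fit. Trp73 was -0.029 with the mean of probe sets, -0.19 with array weights and -0.26 without array 50 (leaving out 1 sample: -0.26 to 0.18). Without arrays 50 and 58 it was -0.34, a fall that passed (adjusted p = 0.00994). Rictor was 0.60 and Kit 0.0106 with the mean of probe sets. Cyclic loess gave Slc4a1 0.0187, Fdps -0.10, Cdkn1c -0.068 and Igf1r -0.17. Cdkn1c was -0.0065 with the Cre-positive cortices, and -0.01, -0.29, -0.11 and -0.25 without arrays 48, 62, 64 and 67 (-0.29 to 0.42). Igf1r was -0.12 without array 46 (-0.12 to 0.21) and Kit 0.018 without array 54 (-0.32 to 0.018). Ntrk3 was 0.0163 without array 50 (-0.36 to 0.0163) and 0.053 without arrays 50 and 58. The cause was not tested. Gliomas and cortices were not paired, because nothing in the labels ties a tumor to a cortex.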
